A study of Mus musculus with 6 samples.

Results

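DNA methylation is laid down and removed by a small set of enzymes, and 9 genes for them were examined in *Zic2* iso/iso and wildtype whole mouse embryos. The genes were taken by symbol from the array's annotation: *Dnmt1*, *Dnmt3a*, *Dnmt3b*, *Dnmt3l*, *Tet1*, *Tet2*, *Tet3*, *Uhrf1* and *Tdg*. Of these 9 genes, 8 had a probe, with 16 probes among them, out of 19057 genes and 45281 probes on the array. *Tet2* matched no probe in the annotation used here by symbol or gene ID and was not analysed. Pools of 8 stage-matched embryos were collected at E8.0 to E8.5, 3 of them *Zic2* iso/iso and 3 wildtype. The *iso* allele was induced with ENU and carries a stop codon within the zinc fingers of the protein. All were on a C3H/HeH background after backcrossing from a C57Bl6/J founder, came from crosses between heterozygotes, and contained embryos of both sexes. Each pool had its own Illumina Mouse WG6 v2 array, where the brightness of a probe (its intensity) stands for the level of a transcript. In such whole-embryo RNA, fewer cells of a type and less RNA per cell cannot be told apart.

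DNMT3A and DNMT3B place methyl groups on unmethylated CpG dinucleotides, with DNMT3L as a partner that lacks catalytic activity. DNMT1 copies the pattern onto the new strand after replication, guided there by UHRF1, which binds hemimethylated DNA. The TET enzymes oxidise the methyl group, and the glycosylase TDG cuts out the oxidised bases for repair. In the mouse, a wave of de novo methylation accompanies implantation, when *Dnmt3b* is strongly expressed in the epiblast. *Dnmt3b* and *Tet1* are both known from pluripotent cells and decline as cells leave the epiblast.

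The starts of 5 of these genes are shown because the CpG dinucleotides in them (capitals) are the substrate on which the encoded enzymes act. They are RefSeq promoter windows of 300 bases, 250 before and 50 after an annotated start, in the GRCm38.p6 build, written 5′ to 3′ on the strand of the gene. The windows are chr2:153649199-153649498 (+) for *Dnmt3b*, chr10:62887275-62887574 (-) for *Tet1*, chr17:56304063-56304362 (+) for *Uhrf1*, chr9:20952574-20952873 (-) for *Dnmt1* and chr10:78042037-78042336 (+) for *Dnmt3l*.
Dnmt3b: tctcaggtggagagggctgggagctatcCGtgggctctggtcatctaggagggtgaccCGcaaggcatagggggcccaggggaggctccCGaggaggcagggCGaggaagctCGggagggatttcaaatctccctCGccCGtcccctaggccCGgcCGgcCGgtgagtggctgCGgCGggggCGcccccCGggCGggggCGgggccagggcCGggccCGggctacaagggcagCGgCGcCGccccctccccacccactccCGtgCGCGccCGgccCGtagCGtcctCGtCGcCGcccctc
Tet1: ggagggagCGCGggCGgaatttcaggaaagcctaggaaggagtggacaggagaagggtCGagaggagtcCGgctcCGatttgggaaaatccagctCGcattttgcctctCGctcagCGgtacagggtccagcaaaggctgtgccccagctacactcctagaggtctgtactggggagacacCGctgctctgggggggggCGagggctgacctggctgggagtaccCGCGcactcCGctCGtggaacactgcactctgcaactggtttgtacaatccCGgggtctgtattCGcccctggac
Uhrf1: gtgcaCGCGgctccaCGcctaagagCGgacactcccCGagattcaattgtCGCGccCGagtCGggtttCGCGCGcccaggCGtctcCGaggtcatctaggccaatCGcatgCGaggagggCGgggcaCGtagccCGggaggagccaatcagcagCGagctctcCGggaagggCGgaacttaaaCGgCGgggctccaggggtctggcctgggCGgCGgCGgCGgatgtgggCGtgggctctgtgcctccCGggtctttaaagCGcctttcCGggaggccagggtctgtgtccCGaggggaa
Dnmt1: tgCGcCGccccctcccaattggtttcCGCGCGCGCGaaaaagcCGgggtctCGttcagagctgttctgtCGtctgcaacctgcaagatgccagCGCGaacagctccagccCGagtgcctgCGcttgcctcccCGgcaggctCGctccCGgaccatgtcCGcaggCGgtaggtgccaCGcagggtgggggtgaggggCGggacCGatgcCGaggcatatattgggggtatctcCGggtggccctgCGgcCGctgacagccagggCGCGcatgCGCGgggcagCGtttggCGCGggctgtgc
Dnmt3l: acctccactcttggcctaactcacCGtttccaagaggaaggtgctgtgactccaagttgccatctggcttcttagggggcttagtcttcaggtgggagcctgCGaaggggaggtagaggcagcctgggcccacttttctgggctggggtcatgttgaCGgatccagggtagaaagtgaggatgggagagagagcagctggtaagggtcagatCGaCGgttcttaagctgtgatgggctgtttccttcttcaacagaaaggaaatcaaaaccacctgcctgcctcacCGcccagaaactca

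These windows hold 30 CpGs in *Dnmt3b*, 17 in *Tet1*, 33 in *Uhrf1*, 33 in *Dnmt1* and 6 in *Dnmt3l*, beside a median of 7 over all 32851 windows. All 9 genes had a window, and there were 16 in all, because *Dnmt1*, *Dnmt3a* and *Dnmt3l* have 3 annotated starts each and *Uhrf1* has 2. The window of *Tet2* held 57 CpGs and the 3 windows of *Dnmt3l* held 6, 4 and 3. For *Dnmt1* and *Uhrf1* the window shown is the one with the most CpGs. Their other windows held 2 and 12 CpGs in *Dnmt1* and 12 in *Uhrf1*. The replication-linked genes *Dnmt1* and *Uhrf1* each carried the E2F-type motif TTTCGCGC in the window shown, and that of *Dnmt1* also carried TTTGGCGC. Neither motif was in the other windows of these genes. The 2 motifs occurred on either strand in 0.323% and 0.514% of all windows. TTTCCCGC, another E2F-type motif, was in 0 of the 16 windows and in 1.07% of all windows. CAGCAGG, a core of the known ZIC motif, was in 1 of the 16 windows, at the second start of *Dnmt3a*, and in 10.5% of all windows. The ZIC2 sites that the authors tested in a *Nodal* enhancer do not hold these letters on either strand. Sites of that kind would be missed by this search. A match is a description of the letters only, and neither methylation nor binding was measured on these samples.

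For none of the 8 genes did the difference between *Zic2* iso/iso and wildtype embryos pass the test. After quantile normalisation of the log2 intensities, each probe was tested in limma, and p-values were adjusted by Benjamini-Hochberg across the 45281 probes. Where a gene has several probes, its brightest was used, and differences are *Zic2* iso/iso minus wildtype. No probe of the 16 passed an adjusted p of 0.05, where 0.0442% of all probes did (20 of 45281). At an unadjusted p of 0.05, again 0 of the 16 passed, beside 6.02% of all probes. No probe of the 16 had mutant pools that were all above or all below the wildtype pools, where 5.18% of all probes were higher and 5.46% lower in that sense. Among the 6 genes above the background level, log2 differences ran from -0.15 to 0.15 with a median of 0.02, beside a median of -0.0069 over the 10438 genes above that level. The background level, 7.47 on the log2 scale, is the 95th percentile of the mean of 1606 probes for beta-defensins, keratin-associated proteins and receptors of the olfactory and vomeronasal organs. With 3 pools against 3, the smallest two-sided p of an exact permutation test is 0.1, and the number of arrays limits the precision of each value. Probe brightness also depends on the probe, so levels of different genes were not ranked against each other.

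**Figure D1:**
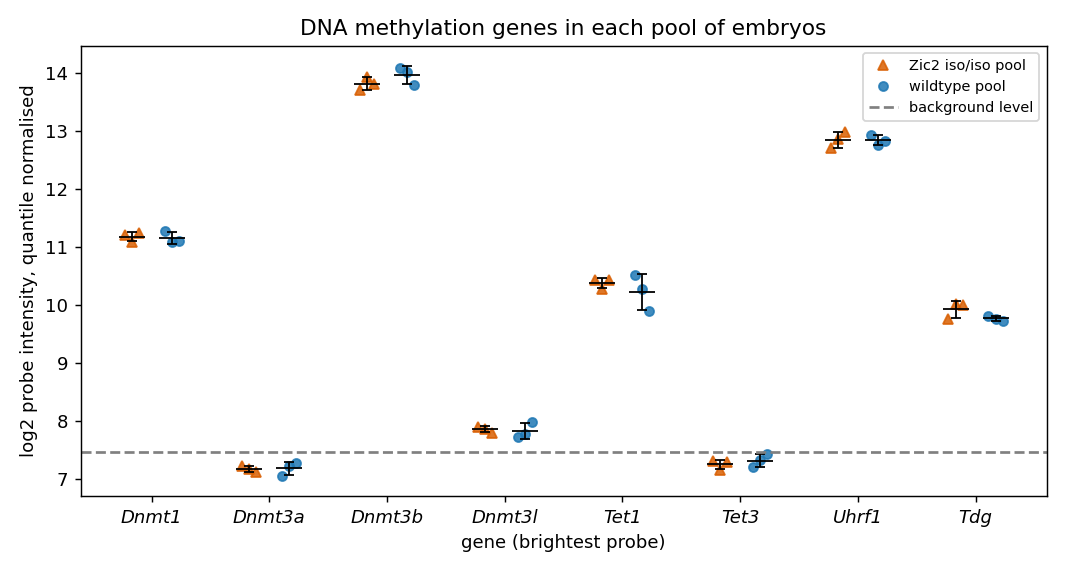
Quantile-normalised log2 intensity (vertical axis) of the brightest probe of 8 genes in each pool of Zic2 iso/iso (triangles) and wildtype (circles) embryos. Each mean is a horizontal bar with its SD over 3 pools, and a dashed line marks the background level of 7.47. Dnmt3a and Tet3 lie below that line, and the pools of both genotypes overlap for every gene.

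Of the de novo enzymes, *Dnmt3b* was far above the background level in every pool. It had 13.71, 13.93 and 13.80 (log2) in *Zic2* iso/iso pools 1 to 3, against 14.08, 14.01 and 13.79 in wildtype pools 1 to 3. As deposited, before normalisation, these are intensities of 16617, 15762 and 12575 in the mutant pools and 15673, 17042 and 13772 in the wildtype pools. The lowest value was in a mutant pool and the highest in a wildtype pool, and the genotypes overlapped. The log2 difference was -0.15 (standard error 0.09, adjusted p = 0.90 from limma), with a 95% interval of -0.33 to 0.04, which is 0.79- to 1.03-fold. Without normalization between arrays it was -0.053, the smallest in size of 16 alternatives, and with arrays centred on the median -0.10. Leaving out 1 pool moved it to between -0.23 and -0.087. It was -0.23 (95% interval -0.41 to -0.05, adjusted p = 1.00 from limma) without wildtype pool 3, the lowest of the wildtype pools, and -0.087 without wildtype pool 1, the highest. A dimmer second probe of *Dnmt3b* had 8.82, 9.07 and 8.55 in mutant pools and 8.96, 9.08 and 8.83 in wildtype pools. Its difference was -0.14 (standard error 0.11, adjusted p = 0.94 from limma), so the probes had nearly equal differences and neither passed the test. Both measure the same pools and are not independent samples.

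*Dnmt3l*, the catalytically inactive partner, was just above the background level in all 6 pools on each of 2 probes. The brighter had 7.91, 7.87 and 7.80 in mutant pools and 7.72, 7.78 and 7.99 in wildtype pools, a log2 difference of 0.03 (95% interval -0.14 to 0.20). The other differed by 0.11 (95% interval -0.07 to 0.28). Background was not subtracted from the deposited intensities, so a change in so dim a transcript would be understated. *Dnmt3a*, the other de novo enzyme, was below the background level on all 3 probes in all 6 pools, at 6.93 to 7.30. A level or a change of *Dnmt3a* could therefore not be read from these probes.

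Maintenance genes differed by less than their spread between pools. *Dnmt1* had 11.21, 11.09 and 11.24 in *Zic2* iso/iso pools, against 11.28, 11.09 and 11.11 in wildtype pools. The difference of 0.02 (standard error 0.07) had a 95% interval of -0.14 to 0.18, or 0.91- to 1.13-fold. *Uhrf1*, which recruits DNMT1, had 12.71, 12.86 and 12.98 in mutant pools, against 12.93, 12.76 and 12.82 in wildtype pools, and the interval of its difference of 0.01 was -0.16 to 0.19, or 0.89- to 1.14-fold. A second probe of *Uhrf1* was above the background level in 3 of 6 pools and below it on average. The sign of the difference of *Dnmt1* and of *Uhrf1* turned under some of the alternatives, as did that of *Dnmt3l* and *Dnmt3a*, so that no direction is given for these genes.

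Among the genes of demethylation, *Tet1* was the one whose wildtype pools lay furthest apart. It had 10.43, 10.28 and 10.44 in mutant pools, against 10.52, 10.27 and 9.90 in wildtype pools. The SD was 0.09 in the mutant pools and 0.31 in the wildtype pools, and 99.1% of the probes above the background level had a smaller SD in the wildtype pools. The difference of 0.15 (standard error 0.12, adjusted p = 0.94 from limma) had a 95% interval of -0.11 to 0.42, which is 0.93- to 1.34-fold. It rested on wildtype pool 3, which was lowest: without it the difference was -0.013, and without wildtype pool 1, which was highest, it was 0.30 (adjusted p = 0.51 from limma, the lowest of any of the 8 genes under any alternative). *Tet1* has 1 probe.

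*Tdg* had 9.76, 10.01 and 10.00 in *Zic2* iso/iso pools, against 9.82, 9.76 and 9.73 in wildtype pools. Mutant pools 2 and 3 were above every wildtype pool and mutant pool 1 was not. The log2 difference was 0.15 (standard error 0.08, adjusted p = 0.88 from limma) with a 95% interval of -0.01 to 0.32, or 0.99- to 1.25-fold. It was positive under all 16 alternatives, from 0.11 to 0.24, and passed the test in none of them. Without mutant pool 1, the lowest of the mutant pools, it was 0.24 (adjusted p = 0.63 from limma). A second, dim probe of *Tdg* was below the background level in all 6 pools. *Tet3* was below that level on all 3 of its probes in all 6 pools. The brightest had 7.31, 7.16 and 7.30 in mutant pools and 7.20, 7.32 and 7.44 in wildtype pools, so that no level or change could be read.

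**Figure D2:**
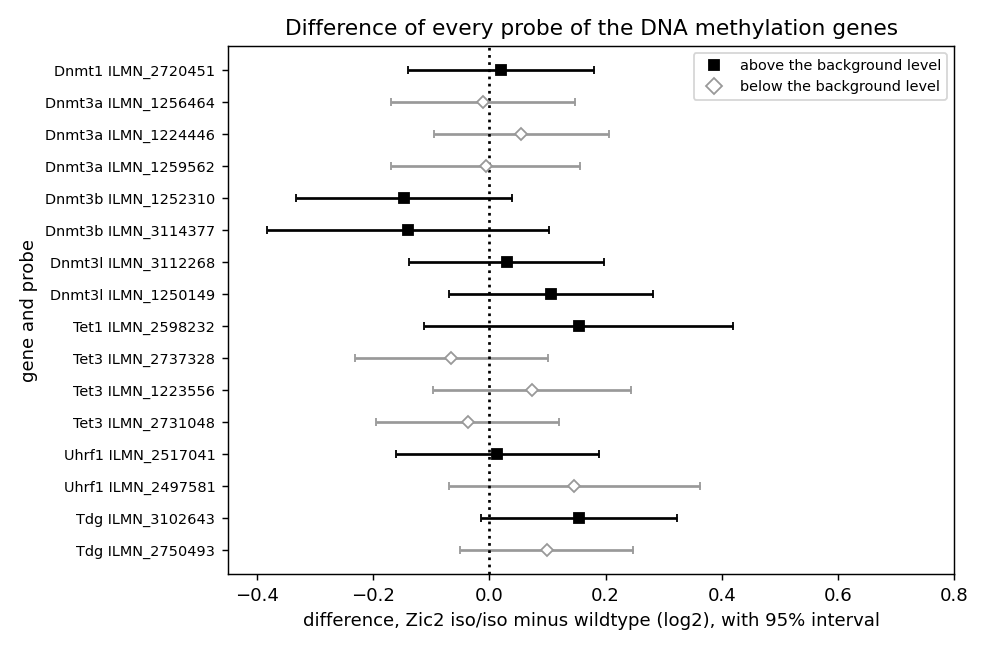
Difference between Zic2 iso/iso and wildtype embryos on the log2 scale (horizontal axis) for each of 16 probes (vertical axis), with the 95% interval from limma. Filled squares are above the background level and open diamonds below it. All 16 intervals include 0, and that of Tet1 is the widest, reaching 0.42.

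The partners of these enzymes were examined as lists. Of 15 measured genes for partners of maintenance and de novo methylation (13 above the background level), none passed the adjusted test or an unadjusted p of 0.05, and the median difference of the 13 was 0.01. The gene with the largest difference was *Nsd1*, which encodes a methyltransferase for histone H3 lysine, at 0.16 (95% interval -0.03 to 0.34). Of 11 measured genes for proteins that read methylated or unmethylated CpGs (10 above the level), none passed, and the largest difference was that of *Kdm2a*, a histone demethylase gene with a CXXC domain, at 0.29 (adjusted p = 0.77 from limma). For the methionine cycle and co-substrate supply, 11 genes were measured (10 above) and none passed. *Ahcy*, which removes the product inhibitor of methyltransferases, had the largest, -0.23 (adjusted p = 0.76 from limma). Of 17 measured replication genes (16 above), none passed, with a median of 0.01 and the largest difference in *Mcm7*, a helicase subunit gene, at 0.30 (adjusted p = 0.72 from limma).

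Genes of base excision repair and factors linked to active demethylation were the next list. Of 16 measured genes, 11 were above the background level, and of these 9 had a negative and 2 a positive difference, with a median of -0.07. Of all 10438 genes above that level, 52.5% had a negative difference. None of the list passed the adjusted test, while 3 (*Gadd45a*, *Gadd45b* and *Parp1*) had an unadjusted p under 0.05 and a negative difference, as had 6.38% of all genes above the level. The mutant pools of 4 were below and of 1 above all wildtype pools, beside 7.15% and 4.88% of all genes above the level, and *Gadd45b* and *Parp1* were picked for naming once their values were known. The largest difference was that of *Gadd45a*, a stress and growth arrest gene that has been linked to demethylation. It had 10.24, 10.30 and 9.95 in *Zic2* iso/iso pools, against 10.67, 10.62 and 10.59 in wildtype pools. The genotypes did not overlap, with a mean difference of -0.46 on the log2 scale (standard error 0.09, 95% interval -0.65 to -0.28), with an adjusted p of 0.14 from limma. Its second probe, also below in every mutant pool, had a difference of -0.53 (adjusted p = 0.069 from limma). With probes averaged by gene the adjusted p was 0.035, and this was the only one of 16 alternatives in which *Gadd45a* passed (range 0.035 to 1.00).

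Germline genes such as *Dazl*, which are kept silent by promoter methylation in the mouse embryo, were near the background in both genotypes. Of 15 measured, 2 (*Ddx4* and *Tdrd1*) were above the background level, and none of the 15 passed, while 3 below that level (*Dazl*, *Tex101* and *Zfp42*) had an unadjusted p under 0.05 and positive differences, as had 2.94% of all probes. The mutant pools of these 3 were above all wildtype pools, and those of *Sycp1*, also below the level, were under all wildtype pools. Over all probes, 5.18% were higher and 5.46% lower in that sense. *Ddx4*, an RNA helicase gene of germ cells, had 7.48, 7.59 and 7.55 in mutant pools and 7.45, 7.48 and 7.48 in wildtype pools (difference 0.07, 95% interval -0.07 to 0.21). *Dazl* was below the background level in all 6 pools, at 7.31, 7.32 and 7.33 in mutant pools and 7.19, 7.14 and 7.22 in wildtype pools (adjusted p = 0.82 from limma). At such a level no expression could be read, and *Dazl*, *Tex101*, *Zfp42* and *Sycp1* were named after their values were seen.

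*Dnmt3b* and *Tet1* were set beside other genes of the epiblast and primitive streak, most of which decline as cells differentiate. Of 17 measured genes on this list, which holds both, 13 were above the background level. None passed the adjusted test, 3 had an unadjusted p under 0.05 with a positive and 1 with a negative difference, and the median was 0.06. Of all genes above the level, 4.7% had such a p with a positive and 6.38% with a negative difference. *Nanog*, a homeobox gene of pluripotent cells, had the largest difference, with 8.53, 8.38 and 8.13 in mutant pools, against 7.85, 7.83 and 7.68 in wildtype pools (adjusted p = 0.084 from limma). It passed the test in 5 of 16 alternatives (adjusted p from 0.017 to 1.00), normexp and variance stabilising normalisation among them. *Pou5f1*, which encodes OCT4 and was picked after its values were seen, had 10.18, 10.11 and 10.34 in mutant pools and 9.90, 9.92 and 9.69 in wildtype pools (adjusted p = 0.28 from limma). For both genes the mutant pools lay above all wildtype pools, while for *Dnmt3b* and *Tet1*, as for most of the 13 genes, the genotypes overlapped. Of the 13, the mutant pools of 2 lay above and of 1 below all wildtype pools, beside 4.88% and 7.15% of all genes above the level. *Pou3f1*, a POU factor gene of epiblast and anterior neural plate also named after its values were seen, was lower in every mutant pool, at -0.47 (adjusted p = 0.31 from limma).

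The log2 ratio of *Dnmt3b* to *Pou5f1* within each pool was 3.53, 3.82 and 3.46 in *Zic2* iso/iso pools, against 4.18, 4.09 and 4.10 in wildtype pools. It was lower in every mutant pool, with a difference of -0.52 (exact two-sided permutation p = 0.1, the smallest possible). The mutant pools of *Pou5f1* already lay above all wildtype pools, so the p of a ratio to it is no test of *Dnmt3b*. A lower ratio to *Pou5f1* in every mutant pool was also found for *Dnmt1* (-0.35) and *Uhrf1* (-0.36), so it was not particular to *Dnmt3b*. For *Tet1* the ratio differed by -0.22 and for *Tdg* by -0.22, with overlapping pools (exact two-sided permutation p = 0.2 for each). The ratios were chosen after the values of *Pou5f1* were seen. Each of these differences is that of the gene minus that of *Pou5f1*, which was itself 0.37. The genes' own differences were -0.15 for *Dnmt3b*, 0.02 for *Dnmt1*, 0.01 for *Uhrf1*, 0.15 for *Tet1* and 0.15 for *Tdg*. The lower ratios of *Dnmt3b*, *Dnmt1* and *Uhrf1* thus reflect mostly the difference of *Pou5f1*.

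**Figure D3:**
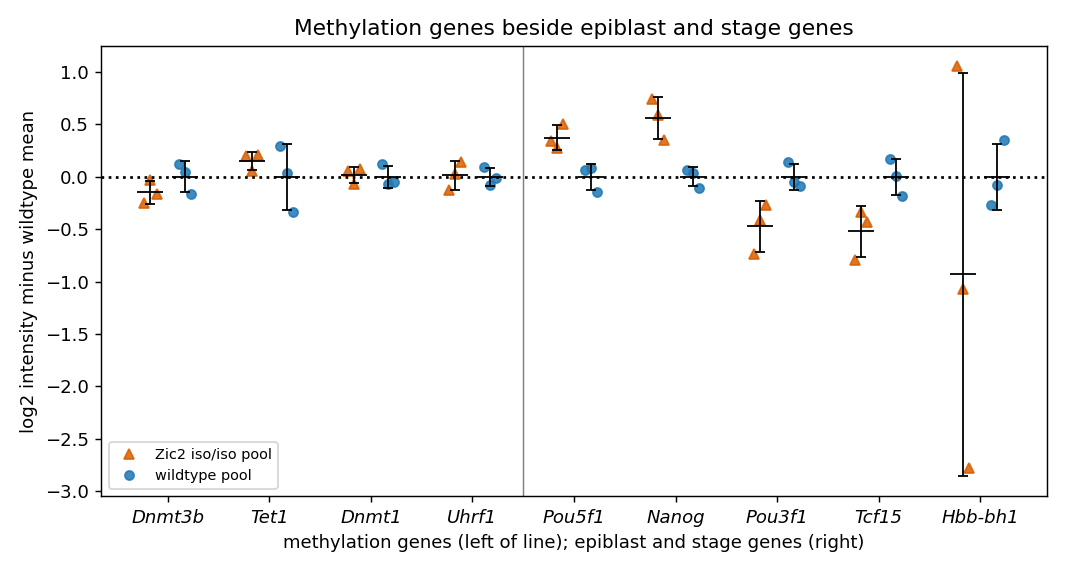
Log2 intensity minus the wildtype mean (vertical axis) of 4 methylation genes and 5 epiblast or stage genes in each pool of Zic2 iso/iso (triangles) and wildtype (circles) embryos. Each mean is a horizontal bar with its SD over 3 pools. Pools overlap for Dnmt3b, Tet1, Dnmt1 and Uhrf1, while the mutant pools of Pou5f1 and Nanog lie above and those of Pou3f1 and Tcf15 below the wildtype pools, and Hbb-bh1 has the widest spread. Pou5f1, Pou3f1 and Tcf15 were picked after their values were seen. Cdx2, on the stage list but not shown, was higher in every mutant pool (difference 0.32). On the lists, most epiblast and stage genes above the background level had overlapping pools.

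Genes of tissues that appear with the first somites were measured as a guide to stage. Of 14 such genes (11 above the background level) none passed the adjusted test, 4 had an unadjusted p under 0.05 with a negative and 2 with a positive difference (6.38% and 4.7% of all genes above the level), and the median was -0.28. The embryonic globin gene *Hbb-bh1* differed most, with 12.87, 10.75 and 9.04 in mutant pools, against 11.55, 11.74 and 12.17 in wildtype pools. The mutant pools lay on both sides of the wildtype pools and differed among themselves far more than any of the methylation genes. Of the 11, the mutant pools of 1 lay below and of 1 above all wildtype pools, beside 7.15% and 4.88% of all genes above the level. These were *Tcf15* (-0.52, adjusted p = 0.27 from limma) and *Cdx2* (0.32, adjusted p = 0.50 from limma), both named after their values were seen. Summed over 7 measured heart markers, normalised intensity was 6602 to 12803 in mutant pools, against 13175 to 16426 in wildtype pools. None of the 7 passed the adjusted test, and the genotypes overlapped for *Actc1*, *Myl7* and *Nkx2-5*. Sums were also lower in every mutant pool for 7 measured markers of paraxial mesoderm, at 3221 to 3664 in mutant pools and 3819 to 4544 in wildtype pools. For 8 markers of the neural plate, 1 of which passed the adjusted test, they were 3777 to 4435 in mutant pools and 4538 to 4658 in wildtype pools. The 4 above the background level were *Sox2*, *Otx2*, *En1* and *Egr2*. Of these, *Sox2* and *Otx2* had positive differences (0.07 and 0.06), so the lower sum was not shared by every marker. It was not read as less neural plate. What part stage or tissue makeup had in the values of *Dnmt3b*, *Tet1* and *Pou5f1* was not tested.

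Over the 6 pools, Pearson's r with *Dnmt3b* was highest for *Eps8l1*, *Nlgn2* and *Khdrbs3* (0.996, 0.992 and 0.986), and with *Tet1* for *Imp3*, *Dynll1* and *Hspg2* (0.996, 0.996 and 0.989). These 3 genes each led 10437 other genes above the background level, over 6 points that share their arrays, and the values are a description only. Between *Dnmt3b* and *Tet1* themselves r was 0.26, and between the 2 probes of *Dnmt3b* it was 0.64. The r of *Tet1* was 0.67 with *Pou5f1* and 0.74 with *Dnmt1*, while that of *Dnmt3b* was -0.35 and 0.02 with the same genes. The order of the pools thus differed between *Dnmt3b* and *Tet1*.

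Several properties of the samples bear on all of these values. The arrays were alike, with r across probes of 0.993 to 0.995 between pools. The brightest probe of *Zic2* itself had 7.64, 7.57 and 8.01 in mutant pools and 8.27, 8.06 and 8.00 in wildtype pools (difference -0.37, adjusted p = 0.61 from limma). A second probe of *Zic2*, just above the background level on average, differed in the other direction, by 0.12 (adjusted p = 0.92 from limma). Since *iso* is a stop codon, its transcript level need not follow the genotype and checks no label. Markers of yolk sac and visceral endoderm were above the background level for 9 of 9 genes, with summed intensities of 29886 to 43831 in mutant pools and 27220 to 36818 in wildtype pools. Of 6 measured trophoblast and decidua markers 3 were above it, among them *Cdx2*, which the embryo's tail also uses. Sums over the 6 were 7160 to 8014 in mutant pools and 6303 to 6626 in wildtype pools. *Cdx2* alone made up most of each sum, at 12.52, 12.40 and 12.66 (log2) in mutant pools and 12.34, 12.20 and 12.07 in wildtype pools. The higher sums therefore could not be read as more trophoblast or decidua. Markers of primordial germ cells were above the background level for 4 of 8 genes. No part of the methylation gene values was assigned to these tissues, and their part was not tested.

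**Figure D4:**
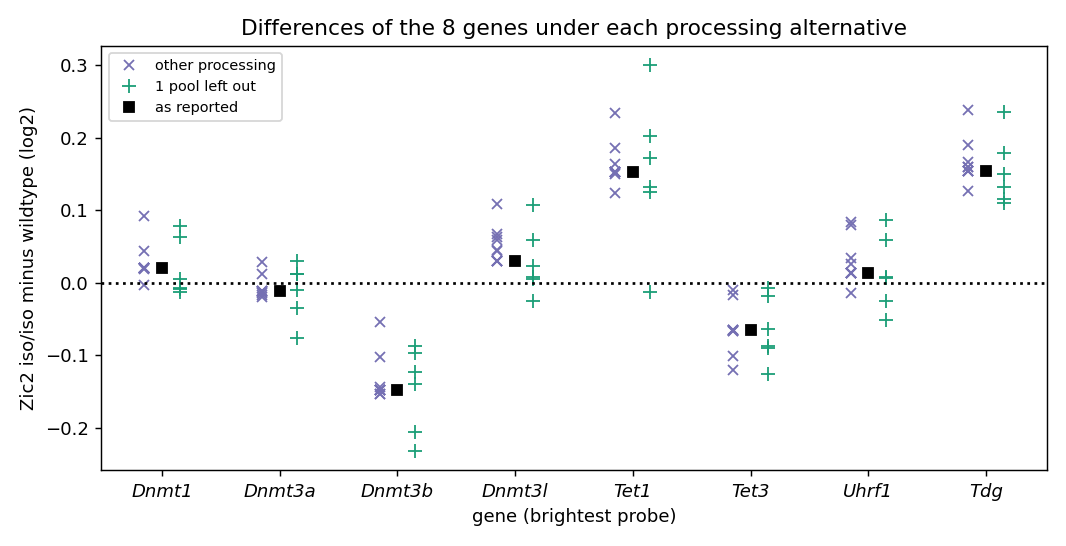
Difference between Zic2 iso/iso and wildtype embryos on the log2 scale (vertical axis) for the brightest probe of 8 genes, as reported (squares), under other processing (crosses) and with 1 pool left out (plus signs). Dnmt3b stays below 0 and Tdg above 0 in all 16 alternatives, while Tet1 spans -0.013 to 0.30.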

How the data were processed

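RNA from 6 pools of embryos, 3 per genotype, was hybridised to 1 Illumina Mouse WG6 v2 array each. Groups and replicate numbers were taken from the sample labels. The authors deposited 1 intensity per probe and array on a linear scale. No background subtraction or normalisation between arrays is seen in them (medians of 154 to 187, lowest values of 104 to 122), although the methods name a variance stabilising step. A floor of 1 was set on the intensities before log2 and quantile normalisation, and the values were fitted with limma 3.58.1 (lmFit, eBayes) in R 4.3.3, without covariates. Adjusted p-values are Benjamini-Hochberg values over all 45281 probes, and no dim probe was removed. Since the labels do not say which litters went into a pool, p-values measure the spread between these pools.

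Probes were named from the platform annotation, with symbols updated through a RefSeq table (GRCm38.p6). Of the probes, 34885 carry 1 symbol, 18 several and 10378 none. All 9 genes and all their probes are named. From the other 8 lists, the genes past the test and the one with the largest difference above the background level are named, and others only where stated. The genes, lists and tests were chosen with earlier results of these data known. The fit was tested on simulated data. Alternatives were other normalisations, background correction (normexp, offset 50), variance stabilising normalisation (rewritten), a filter on dim probes, other variance priors, array weights, the replicate block, each pool left out and probes averaged by gene.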

Additional observations from a re-analysis of the deposited data

How the results depend on the processing

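None of the 8 genes passed an adjusted p of 0.05 in limma under any of 16 alternatives, and 5 of 126 values had an unadjusted p under 0.05 (*Tdg* and *Dnmt3b* in 2 alternatives each, *Tet1* in 1). *Dnmt3b*, *Tet3* and *Tdg* kept their sign throughout. The count of 20 probes called over the array was 4 without normalization between arrays, 11 with arrays centred on the median, 31 when the variance prior followed intensity, 13 with probes averaged by gene, and 14 to 29 when 1 pool was left out. The replicate numbers did not pair the pools (r of deviations -0.13, -0.02 and -0.12 between pools of the same number), and with the replicate block 17 probes were called.

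Reversals were small and none was called. With variance stabilising normalisation *Dnmt1* was at -0.0034 and *Uhrf1* at -0.014. *Dnmt3a*, below the background level, was at 0.030 without normalization between arrays and 0.012 with probes averaged. With 1 pool left out, differences ran from -0.013 to 0.079 for *Dnmt1*, -0.076 to 0.031 for *Dnmt3a*, -0.051 to 0.087 for *Uhrf1*, -0.025 to 0.11 for *Dnmt3l*, -0.013 to 0.30 for *Tet1*, -0.23 to -0.087 for *Dnmt3b*, 0.11 to 0.24 for *Tdg* and -0.13 to -0.0071 for *Tet3*. The cause was not tested. After normexp background correction the difference was -0.15 (95% interval -0.40 to 0.10) for *Dnmt3b* and 0.16 (95% interval -0.13 to 0.46) for *Tet1*. Low signal over background limits *Dnmt3a*, *Tet3* and *Dnmt3l*.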
